A study of Mus musculus with 8 samples.

Results

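The antioxidant, glutathione and NRF2 defence genes are a list of 46 mouse genes among 21761 genes in the deposited count table. They were chosen by name from knowledge of the pathway, with earlier results of these data known. They cover superoxide dismutases and catalase, glutathione peroxidases, peroxiredoxins, the thioredoxin and glutaredoxin systems, glutathione synthesis, glutathione transferases, NRF2 with its inhibitor and inducible enzymes, and metallothioneins. All 46 were in the table under these symbols, and all 46 passed the filter on low counts.

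The study sequenced RNA from dopaminergic neurons of the midbrain of C57BL/6 mice, isolated by TRAP (translating ribosome affinity purification), in which tagged ribosomes of a chosen cell type are captured together with the RNA bound to them. The MPTP group holds 4 libraries from mice given MPTP-HCl by daily intraperitoneal injection for 5 days at 30 mg/kg of free base, and the saline group holds 4 libraries from mice given saline in the same way. Tissue of both groups was taken 4 days after the last injection. Library totals lay between 54192354 and 78892061 counts. Neither the transgene that carries the ribosomal tag and its promoter, nor the age and sex of the mice, nor the number of animals behind a library is given in the sources used here. The labels number the replicates without saying that they are separate animals, so every p-value rests on the spread between these libraries, part of which may be technical. MPTP is a toxin that is converted in the brain to an inhibitor of mitochondrial complex I, and dopaminergic neurons accumulate the product through the dopamine transporter.

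Superoxide leaking from the respiratory chain, and hydrogen peroxide made when dopamine is oxidised, are removed in steps. Superoxide dismutases make hydrogen peroxide, which catalase breaks down. Glutathione peroxidases and peroxiredoxins reduce hydrogen peroxide with electrons from glutathione or thioredoxin. Glutathione is built from cystine-derived cysteine, and its synthesis is limited by glutamate-cysteine ligase. NRF2, the transcription factor encoded by Nfe2l2, is kept low by KEAP1, which passes it to a ubiquitin ligase. When electrophiles or oxidants modify KEAP1, NRF2 binds antioxidant response elements in many of the genes described here.

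The levels of these genes in MPTP libraries were close to those in saline libraries. The quasi-likelihood test of edgeR called 0 of the 46 members higher and 0 lower at an adjusted p of 0.05, where it called 0.075% of the 15999 genes tested higher and 0.0313% lower. With so few calls among all genes, 0 members says little. DESeq2 on the same 8 libraries also called 0 members, where it called 0.331% of all genes tested, so this too says little. Limma voom called 0 members as well, and its share of all genes was not counted. An unadjusted p under 0.05 was found for 2 members by edgeR, where 8.78% of all genes tested had one (4.28% higher and 4.5% lower). By DESeq2 it was found for 3 members and 9.81% of all genes, and by limma voom for 6 members and 12.2% of all genes. The 2 by edgeR were Gpx3, with a positive log2 fold change, and Glrx3, with a negative one.

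The sizes of the differences are bounded more closely than the calls. Log2 fold changes of the members ran between -0.33 and 0.50 with a median of -0.04, beside a median of 0.00056 over all genes tested. They were above 0 for 19 members (41.3%, against 50.1% of all genes tested) and below 0 for 27, and 40 of the 46 were smaller than 0.25 in size. The 95% interval of the fold change lay within 1.5-fold in either direction for 36 members (78.3%), against 62.7% of all genes tested. Among genes with a mean log2 CPM (CPM are counts per 1000000 counts of a library) of at least 4 the shares were 94.4% of 36 members and 95.3% of 8291 genes. The 10 members whose interval was wider or reached further were Sod3, Gpx3, Gpx7, Gpx8, Txnrd2, Gstm1, Mgst1, Nfe2l2, Nqo1 and Hmox1. For these 10 a difference of more than 1.5-fold lay inside the interval. In bulk RNA, fewer cells of a type and less RNA per cell cannot be told apart.

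**Figure D1:**
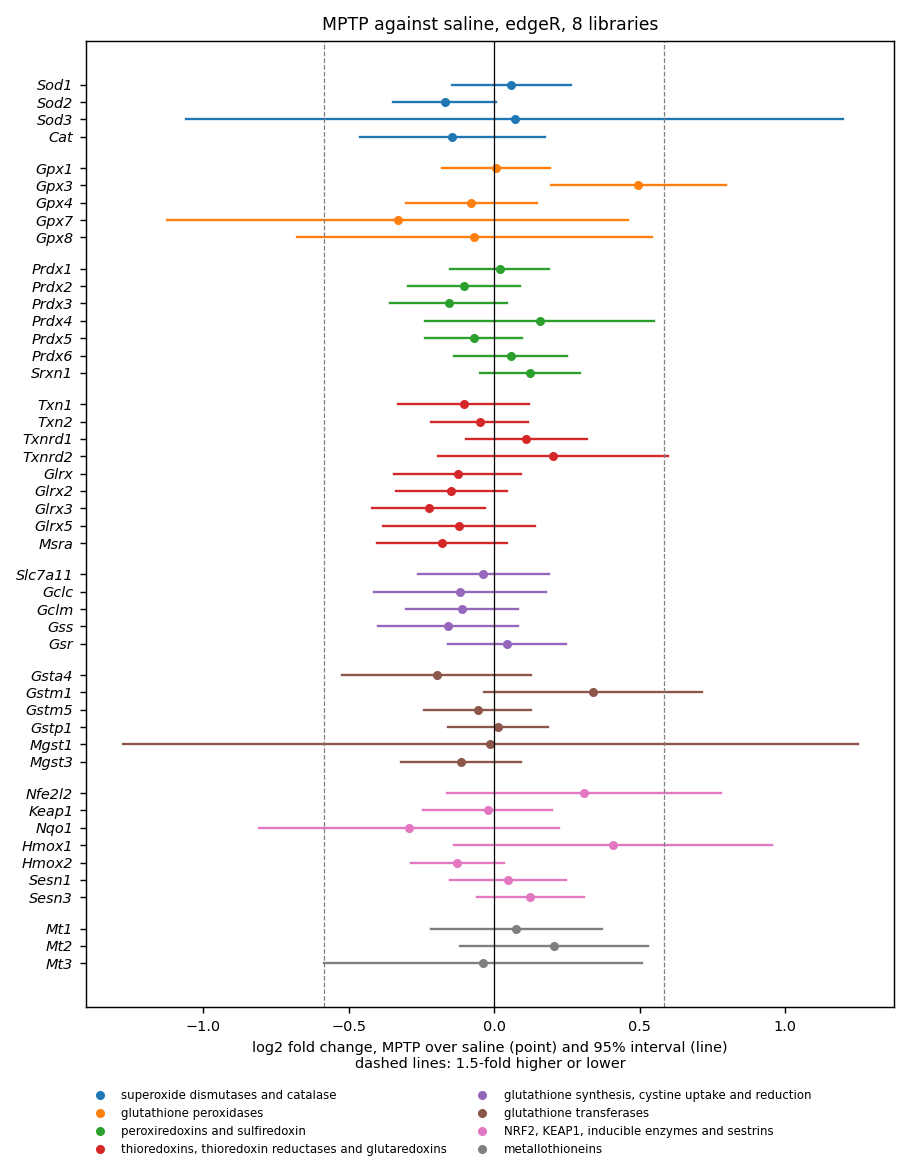
Log2 fold change of MPTP over saline for each of the 46 genes, ordered and coloured by role (points), with the 95% interval of the edgeR fit over 8 libraries (lines). The dashed lines mark 1.5-fold in either direction: 36 of the 46 intervals lie between them, and that of Gpx3, at 0.19 to 0.80, lies above 0 and crosses the upper line.

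The libraries did not fall cleanly into their groups. On the first principal component of all genes saline 3 lay at -24.1, beside the MPTP libraries at -23.0 to -15.3 and apart from the other saline libraries at 26.9 to 38.9. Saline 3 also had the highest mean log2 CPM of non-neuronal markers of all 8 libraries, 3.25, and the lowest of dopaminergic neuron markers, 7.36. For the dopaminergic markers this score was 7.65 ± 0.11 under MPTP and 7.79 ± 0.29 under saline (SD, n = 4 each, exact permutation p = 0.4). All 15 dopaminergic markers were detected, with log2 fold changes above 0 for 3 of them, a median of -0.16 and 0 called by edgeR. Their summed levels were 9156 to 10841 CPM in MPTP libraries, 12659.8 to 13660.4 CPM in saline 1, 2 and 4, and 8192 CPM in saline 3. Every MPTP library thus lay below saline 1, 2 and 4 and above saline 3, and the score difference was -0.15 with all 8 libraries and -0.29 without saline 3. For the non-neuronal markers it was 2.91 ± 0.18 under MPTP and 2.64 ± 0.42 under saline (SD, n = 4 each, exact permutation p = 0.257). The difference in this score was 0.27 with all 8 libraries and 0.48 without saline 3, which is given with no test because this score and the first component are why saline 3 is set aside. The part of these marker levels in the results that follow was not tested. Gene results without saline 3 carry the same limit, since these data singled that library out. Their adjusted p values and threshold passes are therefore descriptive. Summed levels of astrocyte markers were 603 to 680.4 CPM in MPTP libraries, 538 to 575 CPM in saline 1, 2 and 4, and 753 CPM in saline 3, and oligodendrocyte markers 1216 to 1396, 838 to 1011 and 1778 CPM in the same order. Microglia markers summed to 59.3 to 69.8, 53.4 to 66.3 and 64.1 CPM, and endothelial markers to 11.7 to 19.8, 10.7 to 14.9 and 20.7 CPM, in the same order. No marker of the astrocyte, oligodendrocyte, microglia or endothelial lists was at 0 in all libraries. Log2 fold changes were above 0 for 13 of 13 astrocyte, 11 of 12 oligodendrocyte, 8 of 12 microglia and 5 of 10 endothelial markers. EdgeR called 0 of these markers, where it called 0.106% of all genes tested. DESeq2 on the same 8 libraries called the microglia marker Cd68 higher, at a log2 fold change of 2.04 (DESeq2 adjusted p = 0.000837). It called 0.331% of all genes tested there.

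NRF2 and KEAP1 come first among the roles because NRF2 activates many of the other genes and KEAP1 restrains it. Nfe2l2 (chromosome 2, 75675513 to 75704641 of GRCm38, minus strand) was at 9.17, 14.6, 10.3 and 6.60 CPM in the MPTP libraries and at 8.58, 6.82, 10.7 and 6.66 CPM in the saline libraries. MPTP 2 was the highest and MPTP 4 the lowest of the 8, so the saline values lie within the MPTP range. The log2 fold change of Nfe2l2 was 0.31 (SE 0.22, edgeR adjusted p = 0.720), with a 95% interval of -0.16 to 0.78. It was 0.47 without saline 3 (edgeR adjusted p = 0.303, with 0.247 to 0.990 over all alternatives), 0.086 without MPTP 2 and 0.04 once the non-neuronal score entered as covariate. Keap1 (chromosome 9, 21229730 to 21239361, minus strand) was at 31.4, 27.4, 34.1 and 34.3 CPM in MPTP and at 31.1, 36.1, 30.7 and 31.4 CPM in saline. Its groups overlap, with a log2 fold change of -0.02 (SE 0.10, edgeR adjusted p = 0.967), and 10.9% of its exonic bases are shared with the antisense gene Gm16754. NRF2 is regulated mainly by protein turnover, which RNA counts do not show.

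Nqo1 and Hmox1, enzymes often read as a sign of NRF2 activity, were scarce here. Other NRF2 targets were not: Srxn1, given below, averaged 130 CPM under MPTP and 119.5 CPM under saline. Nqo1, a quinone reductase, was at 2.89, 5.70, 4.55 and 3.82 CPM in MPTP and at 5.01, 6.64, 3.86 and 5.25 CPM in saline. These overlapping values gave a log2 fold change of -0.29 (SE 0.24, edgeR adjusted p = 0.762). Hmox1, the inducible haem oxygenase, was at 4.20, 4.33, 4.97 and 5.13 CPM in MPTP and at 3.78, 2.95, 5.13 and 2.17 CPM in saline. Saline 3 was at the top of the MPTP range, while saline 1, 2 and 4 lay below all 4 MPTP libraries. The log2 fold change of Hmox1 was 0.41 (SE 0.26, edgeR adjusted p = 0.677), and 0.65 without saline 3 (edgeR adjusted p = 0.199, with 0.112 to 0.916 over all alternatives).

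Hmox2, the constitutive haem oxygenase, is one of the members whose groups did not overlap. It was at 89.5, 89.5, 86.2 and 92.7 CPM in MPTP and at 96.2, 101, 95.1 and 98.7 CPM in saline. All 4 MPTP libraries lay below all 4 saline libraries, as they did for 2.14% of all genes tested. The difference is small, at a log2 fold change of -0.13 (SE 0.08, edgeR adjusted p = 0.654). Hmox2 (chromosome 16, 4726361 to 4766742, plus strand) has 892 of its exonic bases (40.2%) in common with Cdip1 on the other strand, and without strand information reads of the shared stretch cannot be told apart. The sestrins Sesn1 and Sesn3, stress-induced regulators of redox and nutrient signalling, had log2 fold changes of 0.05 and 0.12 (edgeR adjusted p = 0.916 and 0.712). Of the 7 genes in the group of NRF2, KEAP1, inducible enzymes and sestrins, 4 were above 0 and 3 below.

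**Figure D2:**
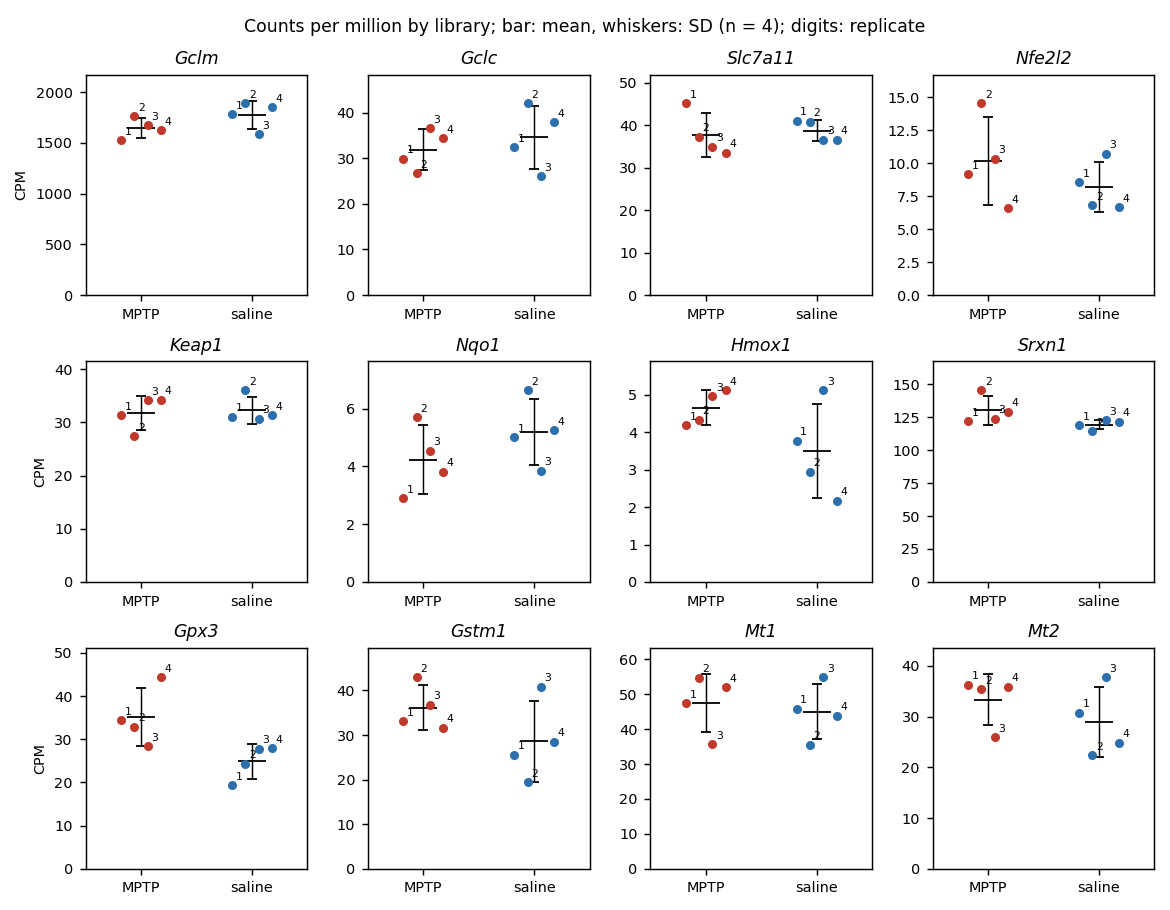
CPM of 12 genes in each MPTP library (red, left) and each saline library (blue, right), with the replicate number beside each point, the mean (bar) and SD (whiskers, n = 4), on axes that start at 0. The groups of Gpx3 do not overlap. Saline 3 is the highest saline library for Nfe2l2, Hmox1, Srxn1, Gstm1, Mt1 and Mt2, and the lowest for Gclc, Gclm, Keap1 and Nqo1.

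The core of the antioxidant response element, to which NRF2 binds, was looked for close to the starts of the members. RefSeq promoters of GRCm38.p6, which run from 250 bases before to 50 bases after a start, were matched by symbol for 39 of the 46 members. The core TGACNNNGC occurred on either strand in 9 of the 39 members (23.1%), against 14.0% of 27025 genes. Counted by promoter the shares were 9 of 53 (17.0%) among members and 12.4% of 32851 in all. A match shows these letters and no binding. Elements outside this stretch would be missed, so a member without a match may still have one. The 7 members without a promoter, Gclc and Hmox1 among them, were not searched. The 30-base windows around the 9 matches follow, 5′ to 3′ on the strand of the gene, with the match in capitals, as the core itself or as its reverse complement. Their positions on GRCm38.p6 are chr16:90220696-90220725 plus strand for Sod1, chr4:116685456-116685485 plus for Prdx1, chr2:152105542-152105571 plus for Srxn1, chr10:82859104-82859133 plus for Txnrd1, chr3:122245413-122245442 plus for Gclm, chr3:107895802-107895831 plus for Gstm5, chr6:138140461-138140490 plus for Mgst1, chr2:75704884-75704913 minus for Nfe2l2 and chr8:94172529-94172558 plus for Mt2.
Sod1: gccaaggtggGCGTGGTCAgactcaggcct
Prdx1: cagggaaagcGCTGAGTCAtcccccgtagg
Srxn1: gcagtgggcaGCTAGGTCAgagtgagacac
Txnrd1: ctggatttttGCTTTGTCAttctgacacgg
Gclm: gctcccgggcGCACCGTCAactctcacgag
Gstm5: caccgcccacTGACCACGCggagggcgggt
Mgst1: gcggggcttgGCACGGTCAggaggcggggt
Nfe2l2: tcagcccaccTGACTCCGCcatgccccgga
Mt2: aaagggggtgTGACTCAGCgcggggggtgg

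Of these 9 genes 0 were called by edgeR, and their log2 fold changes ran between -0.11 for Gclm and 0.31 for Nfe2l2.

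Glutathione synthesis genes had the highest CPM of all members in Gclm, the modifier subunit of glutamate-cysteine ligase. This subunit lowers the enzyme's need for glutamate and its inhibition by glutathione. Gclm (chromosome 3, 122245557 to 122270732, plus strand) was at 1525, 1761, 1674 and 1625 CPM in MPTP and at 1781, 1891, 1583 and 1851 CPM in saline. Saline 3 lay inside the MPTP range, while saline 1, 2 and 4 lay above all 4 MPTP libraries. The log2 fold change of Gclm was -0.11 (SE 0.09, edgeR adjusted p = 0.761) with a 95% interval of -0.30 to 0.08, and -0.16 without saline 3 (edgeR adjusted p = 0.310, with 0.202 to 0.953 over all alternatives). Among 15213 genes with an exon length, Gclm ranked 120 by CPM per kilobase of exon in saline.

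The promoter of Gclm on the plus strand of GRCm38.p6, at chr3:122245307-122245585, is shown because it belongs to the member with the highest CPM and holds one of the 9 matches, in capitals.
Gclm promoter: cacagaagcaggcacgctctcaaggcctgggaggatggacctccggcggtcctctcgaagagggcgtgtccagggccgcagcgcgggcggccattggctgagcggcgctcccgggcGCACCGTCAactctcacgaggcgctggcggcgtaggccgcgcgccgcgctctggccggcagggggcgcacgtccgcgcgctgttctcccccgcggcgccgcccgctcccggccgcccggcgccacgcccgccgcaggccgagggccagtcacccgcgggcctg

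Gclc, the catalytic subunit, was far less abundant than Gclm. It was at 29.8, 26.7, 36.6 and 34.4 CPM in MPTP and at 32.4, 42.0, 26.0 and 37.9 CPM in saline. The groups overlap, and saline 3 and MPTP 2 were the lowest libraries. Gclc had a log2 fold change of -0.12 (SE 0.14, edgeR adjusted p = 0.851). It was -0.23 without saline 3 (edgeR adjusted p = 0.368, with 0.342 to 0.997 over all alternatives), -0.0068 without saline 2 and 0.10 with the non-neuronal covariate. Per kilobase of exon, the ratio of Gclm to Gclc was 31.4 ± 5.51 under MPTP and 31.4 ± 4.19 under saline (SD, n = 4 each). The group means of this ratio differed by less than the spread between libraries.

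The remaining genes of this group supply cystine or finish and recycle glutathione. Slc7a11, the cystine-glutamate exchanger, was at 45.2, 37.3, 35.0 and 33.5 CPM in MPTP and at 41.1, 40.8, 36.6 and 36.6 CPM in saline, with overlapping groups and a log2 fold change of -0.04 (SE 0.11). Gss, glutathione synthetase, was at 17.3, 15.5, 16.8 and 16.3 CPM in MPTP and at 19.1, 16.7, 17.9 and 20.0 CPM in saline. Those groups overlap through MPTP 1 and MPTP 3, which lay above saline 2. The log2 fold change of Gss was -0.16 (SE 0.11, edgeR adjusted p = 0.720). Gsr, which reduces oxidised glutathione, averaged 29.6 ± 2.04 CPM under MPTP and 28.8 ± 0.573 CPM under saline (SD, n = 4 each), and its log2 fold change of 0.04 is the 1 value above 0 among these 5 genes.

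Glutathione transferases, which join glutathione to electrophiles, had 2 values above 0 and 4 below, and Gstm1 had the smallest p among them. Gstm1, a transferase of the mu class, was at 33.0, 43.0, 36.8 and 31.6 CPM in MPTP and at 25.6, 19.4, 40.8 and 28.5 CPM in saline. Saline 3 lay inside the MPTP range, and the other 3 saline libraries lay below all 4 MPTP libraries. With all 8 libraries the log2 fold change of Gstm1 was 0.34 (SE 0.18, edgeR adjusted p = 0.606). Without saline 3 it was 0.56 and passed the edgeR threshold (adjusted p = 0.0492), as did 0.853% of 16180 genes in the higher direction and 1.84% in either direction there. That pass is descriptive, since these data singled out saline 3. With the non-neuronal covariate the log2 fold change was 0.12, and adjusted p values of Gstm1 ran between 0.00701 and 0.925 over all alternatives. Summed levels of astrocyte, oligodendrocyte and endothelial markers were, like Gstm1, higher in saline 3 than in the other saline libraries, as given above, and their part in this result was not tested. A processed pseudogene, Gstm2-ps1, matches 51.0% of the Gstm1 transcript at 97.9% identity in its longest stretch, so the count of Gstm1 (chromosome 3, 108012255 to 108017973, minus strand) is uncertain where reads were shared.

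Among the other transferases, Gsta4, which detoxifies the lipid peroxidation product hydroxynonenal, was at 65.9, 61.8, 87.5 and 59.8 CPM in MPTP and at 63.2, 98.6, 63.1 and 90.5 CPM in saline. Both groups spread widely and overlap, with a log2 fold change of -0.20 (SE 0.15, edgeR adjusted p = 0.742). Gstp1, the pi-class enzyme, had a log2 fold change of 0.01, Gstm5 -0.06 and the microsomal enzyme Mgst3 -0.11, each with a 95% interval within 1.5-fold. The Gstp1 count is uncertain, since 86.1% of its transcript matches Gstp2, at 98.2% identity in the longest stretch. Mgst1 was scarce, at 0.799 ± 0.430 CPM under MPTP and 0.805 ± 0.513 CPM under saline (SD, n = 4 each), and its 95% interval of -1.28 to 1.25 on the log2 scale leaves a large difference in either direction possible. The log2 fold change of Mgst1 was -0.014 with all 8 libraries and 0.44 without saline 3.

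Glutathione peroxidases held the member with the smallest p. Gpx3, the secreted glutathione peroxidase (chromosome 11, 54902453 to 54910377, plus strand), was at 34.5, 32.9, 28.4 and 44.4 CPM in MPTP and at 19.4, 24.4, 27.8 and 27.9 CPM in saline. All 4 MPTP libraries lay above all 4 saline libraries, as they did for 2.04% of all genes tested, though MPTP 3 and saline 4 were nearly equal. The fold was 1.41 with a 95% interval of 1.14 to 1.74, or a log2 fold change of 0.50 (SE 0.14, edgeR adjusted p = 0.389). It was 0.36 without MPTP 4 and 0.40 without saline 1, and 0.48 with the non-neuronal covariate. Gpx3 passed the threshold in 1 setting, DESeq2 without saline 3, at an adjusted p of 0.0152, where DESeq2 called 2.54% of all genes higher and 5.12% in either direction. Over all alternatives its adjusted p values ran between 0.0152 and 0.791.

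The other glutathione peroxidases gave smaller values. Gpx1, the main cytosolic enzyme, was at 152, 149, 128 and 159.5 CPM in MPTP and at 139, 154, 138 and 155 CPM in saline. Its groups overlap, and its log2 fold change of 0.01 (SE 0.09) changes sign with small changes of setting. Gpx4, which reduces lipid hydroperoxides in membranes and guards against ferroptosis, was at 77.2, 94.5, 68.4 and 85.4 CPM in MPTP and at 97.0, 75.4, 84.4 and 86.9 CPM in saline. Those groups overlap as well, with a log2 fold change of -0.08 (SE 0.11, edgeR adjusted p = 0.867). A processed pseudogene, Gpx4-ps2, matches 73.7% of the Gpx4 transcript. Gpx7, of the endoplasmic reticulum, was at 2.82, 2.60, 2.38 and 0.702 CPM in MPTP and at 1.80, 2.80, 2.76 and 3.35 CPM in saline. MPTP 4 was the lowest library there, and the log2 fold change was -0.33 (SE 0.37, edgeR adjusted p = 0.841) with all libraries and -0.038 without MPTP 4. Gpx8, also of the endoplasmic reticulum, had a log2 fold change of -0.07 (SE 0.29), with libraries between 1.73 and 2.42 CPM under MPTP and between 1.91 and 2.40 CPM under saline.

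Peroxiredoxins, most of which reduce peroxide with electrons from thioredoxin, were among the more tightly measured members. All 7 genes of this group, Srxn1 included, had a 95% interval within 1.5-fold. Prdx3, the mitochondrial enzyme, was at 73.2, 81.9, 74.9 and 85.3 CPM in MPTP and at 91.0, 95.3, 73.5 and 91.4 CPM in saline. Saline 3 fell among the MPTP libraries and the other saline libraries lay above them. Prdx3 had a log2 fold change of -0.16 (SE 0.09, edgeR adjusted p = 0.664), and -0.23 without saline 3 (edgeR adjusted p = 0.177, with 0.103 to 0.952 over all alternatives). Srxn1, sulfiredoxin, which repairs overoxidised peroxiredoxins and is a known NRF2 target, was at 122, 146, 124 and 129 CPM in MPTP and at 119, 115, 123 and 122 CPM in saline. MPTP 2 stood above the rest, and saline 3 lay between MPTP 1 and MPTP 3. The log2 fold change of Srxn1 was 0.12 (SE 0.08, edgeR adjusted p = 0.694).

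The remaining peroxiredoxins had log2 fold changes of 0.02 for Prdx1, -0.10 for Prdx2 (-0.17 without saline 3), 0.16 for Prdx4 of the endoplasmic reticulum, -0.07 for Prdx5 and 0.06 for Prdx6. Prdx5, which acts in mitochondria, peroxisomes and cytosol, averaged 238 ± 14.3 CPM under MPTP and 249.9 ± 10.2 CPM under saline (SD, n = 4 each). It has 409 exonic bases (19.1%) in common with Trmt112 on the other strand.

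The thioredoxin and glutaredoxin group, which keeps protein thiols reduced, had 2 genes above 0 and 7 below. Glrx3, a monothiol glutaredoxin of iron-sulphur handling, was at 46.0, 47.0, 48.5 and 46.4 CPM in MPTP and at 57.4, 60.4, 47.2 and 54.7 CPM in saline. Saline 3 lay inside the narrow MPTP range and the other saline libraries lay above it. Glrx3 had a log2 fold change of -0.23 (SE 0.09, 95% interval -0.42 to -0.03, edgeR adjusted p = 0.506). Without saline 3 it was -0.29 by either tool, at an adjusted p of 0.0951 by edgeR and 0.0266 by DESeq2, which called 2.58% of all genes lower there. With the non-neuronal covariate it was -0.14, and adjusted p values of Glrx3 ran between 0.0266 and 0.846 over all alternatives. A processed pseudogene, Gm12669, matches 28.0% of the Glrx3 transcript.

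Msra, which reduces oxidised methionine, was at 30.7, 32.7, 34.5 and 31.3 CPM in MPTP and at 32.3, 42.0, 38.9 and 33.1 CPM in saline. Those groups overlap, saline 2 and saline 3 being the highest, with a log2 fold change of -0.18 (SE 0.11, edgeR adjusted p = 0.646). Cytosolic thioredoxin Txn1 had a log2 fold change of -0.10 and mitochondrial Txn2 -0.05. Their reductases Txnrd1 and Txnrd2 had the values above 0 in the group, 0.11 and 0.20, with edgeR adjusted p values of 0.777 and 0.796. Glrx, Glrx2 and the mitochondrial Glrx5 had -0.13, -0.15 and -0.12.

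Superoxide dismutases and catalase gave 2 values above 0 and 2 below. Sod2, the manganese enzyme of the mitochondrial matrix, was at 281, 303, 304 and 270.0 CPM in MPTP and at 363, 319.8, 318 and 302 CPM in saline. Saline 4 lay just below MPTP 2 and MPTP 3, and the other saline libraries lay above every MPTP library. Sod2 had a log2 fold change of -0.17 (SE 0.08, 95% interval -0.35 to 0.01, edgeR adjusted p = 0.588). Sod1, the copper-zinc enzyme of the cytosol, was at 217, 274, 211 and 224 CPM in MPTP and at 244, 223, 198 and 224 CPM in saline. MPTP 2 was the highest and saline 3 the lowest of these overlapping libraries, and the log2 fold change was 0.06 (SE 0.10, edgeR adjusted p = 0.897). A processed pseudogene, Gm8566, matches 72.5% of the Sod1 transcript.

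Per kilobase of exon, the ratio of Sod1 to Sod2 was 2.02 ± 0.226 under MPTP and 1.72 ± 0.126 under saline (SD, n = 4 each), and the ranges overlapped. The size of this ratio depends on the exon lengths used. These are 3970 bases for Sod1, whose longest coding transcript has 641, and 10008 for Sod2, against 5861. Catalase, Cat, the peroxide enzyme of peroxisomes, was at 30.1, 25.3, 43.1 and 30.1 CPM in MPTP and at 27.7, 40.9, 36.5 and 37.1 CPM in saline. MPTP 3 was the highest of all 8 libraries although the other MPTP libraries lay low, and the log2 fold change was -0.14 (SE 0.15, edgeR adjusted p = 0.827). Sod3, the extracellular enzyme, was the least abundant member per kilobase, at 0.904 ± 0.274 CPM under MPTP and 0.862 ± 0.478 CPM under saline (SD, n = 4 each). Its log2 fold change was 0.07 with all 8 libraries and 0.43 without saline 3.

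Metallothioneins, small cysteine-rich proteins that bind zinc and copper and are induced by metals and oxidants, did not separate the groups. Mt3, Mt2 and Mt1 lie in a row on chromosome 8, at 94152607 to 94154146, 94172664 to 94173568 and 94179082 to 94180327, all on the plus strand. Mt1 was at 47.5, 54.7, 35.8 and 52.1 CPM in MPTP and at 45.9, 35.5, 54.9 and 43.9 CPM in saline. Its groups overlap, and the log2 fold change was 0.08 (SE 0.14, edgeR adjusted p = 0.909), and 0.19 without saline 3. Mt2 was at 36.3, 35.4, 25.9 and 35.9 CPM in MPTP and at 30.7, 22.4, 37.8 and 24.8 CPM in saline. MPTP 3 lay among the saline libraries and saline 3 above every MPTP library, and the log2 fold change of Mt2 was 0.21 (SE 0.15, edgeR adjusted p = 0.728). It was 0.36 without saline 3 (edgeR adjusted p = 0.191, with 0.131 to 0.992 over all alternatives) and 0.04 with the non-neuronal covariate.

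The same libraries were high or low for both genes: MPTP 3 was the lowest MPTP library, saline 3 the highest and saline 2 the lowest saline library for Mt1 and for Mt2. This saline pattern is not particular to them. Gstm1 and some non-neuronal markers, such as Mbp and S100b, had it too, while others, such as Mag and Gfap, did not. Mt2 has 432 of its exonic bases (73.5%) in common with Gm45774, an antisense gene. Mt3, the brain-enriched member, was at 5.52, 13.1, 4.96 and 6.71 CPM in MPTP and at 8.99, 7.70, 8.11 and 6.30 CPM in saline. MPTP 2 stood far above the rest, and the log2 fold change of Mt3 was -0.04 (SE 0.26, edgeR adjusted p = 0.981), and -0.44 without MPTP 2.

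The promoters of Mt1 and Mt2 are shown because the genes are neighbours with the same high and low libraries. A link between promoter sequence and level was not tested for these 2 promoters. Both are on the plus strand of GRCm38.p6, at chr8:94178839-94179117 for Mt1 and chr8:94172368-94172646 for Mt2, and capitals mark matches to the metal response element core, TGCACNC or TGCGCNC, on either strand. There are 3 matches in Mt1 and 4 in Mt2, and 1.97% of 32851 promoters in the table hold 3 or more. Counted by gene, 13 of 39 members (33.3%) and 28.2% of 27025 genes hold at least 1.
Mt1 promoter: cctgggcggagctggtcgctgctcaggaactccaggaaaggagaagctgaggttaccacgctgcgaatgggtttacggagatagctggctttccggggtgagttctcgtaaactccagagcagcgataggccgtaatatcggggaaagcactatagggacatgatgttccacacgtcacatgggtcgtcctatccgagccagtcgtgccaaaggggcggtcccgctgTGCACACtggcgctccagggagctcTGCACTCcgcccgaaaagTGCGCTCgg
Mt2 promoter: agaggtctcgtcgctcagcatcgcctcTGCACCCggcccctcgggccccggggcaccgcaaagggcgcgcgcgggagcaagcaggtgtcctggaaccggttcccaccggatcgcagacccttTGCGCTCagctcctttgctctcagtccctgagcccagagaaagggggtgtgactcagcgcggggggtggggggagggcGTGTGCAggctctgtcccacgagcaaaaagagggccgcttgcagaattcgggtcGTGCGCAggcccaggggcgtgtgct

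Across all roles the members spanned a wide range of levels. Means per kilobase of exon in saline ran between 282 CPM per kilobase for Gclm and 0.230 for Sod3, and Gclm was at 262 CPM per kilobase in MPTP. These lengths take in every annotated exon of a gene, which can exceed a transcript, and the order of genes depends on that choice. For Sod1 they give 3970 bases, where its longest coding transcript has 641, and for Gclm 6291, against 5589. After Gclm came Prdx5, at 111 CPM per kilobase in MPTP and 117 in saline, then Gstp1 at 113 and 112, Gstm5 at 105 and 109, and Gpx1 at 102 and 102. Neighbours among these 4 genes after Gclm differ by less than the larger SD of the pair. Of the 46 members 18 (39.1%) were in the highest 10% of genes by CPM per kilobase in saline, and the median member was at 14.2 CPM per kilobase against 3.77 for all 15213 genes. The NRF2-inducible enzyme Nqo1 stood low, at 2.73 CPM per kilobase in MPTP and 3.34 in saline. Hmox2 exceeded Hmox1 per kilobase by a ratio of 15.3 ± 1.54 under MPTP and 24.4 ± 9.20 under saline (SD, n = 4 each). The ranges overlapped, with saline 3 at 14.6 and the MPTP libraries at 13.69 to 16.85, and saline 4 was the highest, at 35.95. The Hmox2 count keeps the uncertainty from Cdip1 given above.

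**Figure D3:**
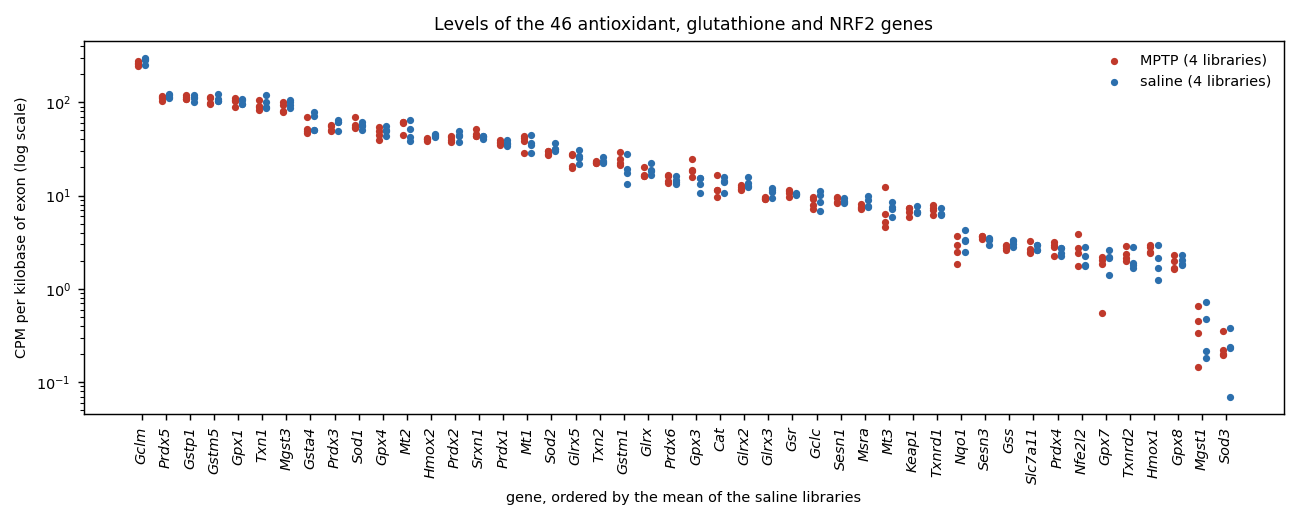
Level of each gene in CPM per kilobase of exon, on a log axis, in the 4 MPTP libraries (red, left of each pair) and the 4 saline libraries (blue, right), ordered by the saline mean. With lengths taken over all annotated exons, Gclm stands above all others at 262 in MPTP and 282 in saline, and Mgst1 and Sod3 lie below 1.

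Summed over all 46 genes, the level was 4802 ± 159 CPM under MPTP and 5031 ± 241 CPM under saline (SD, n = 4 each), or between 0.473% and 0.507% of a library's counts. Gclm alone gave 33.0% to 36.0% of the counts of the members. The median coefficient of variation between libraries of a group was 10.2% in MPTP and 10.4% in saline. It exceeded 30% in at least 1 group for 7 members.

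**Figure D4:**
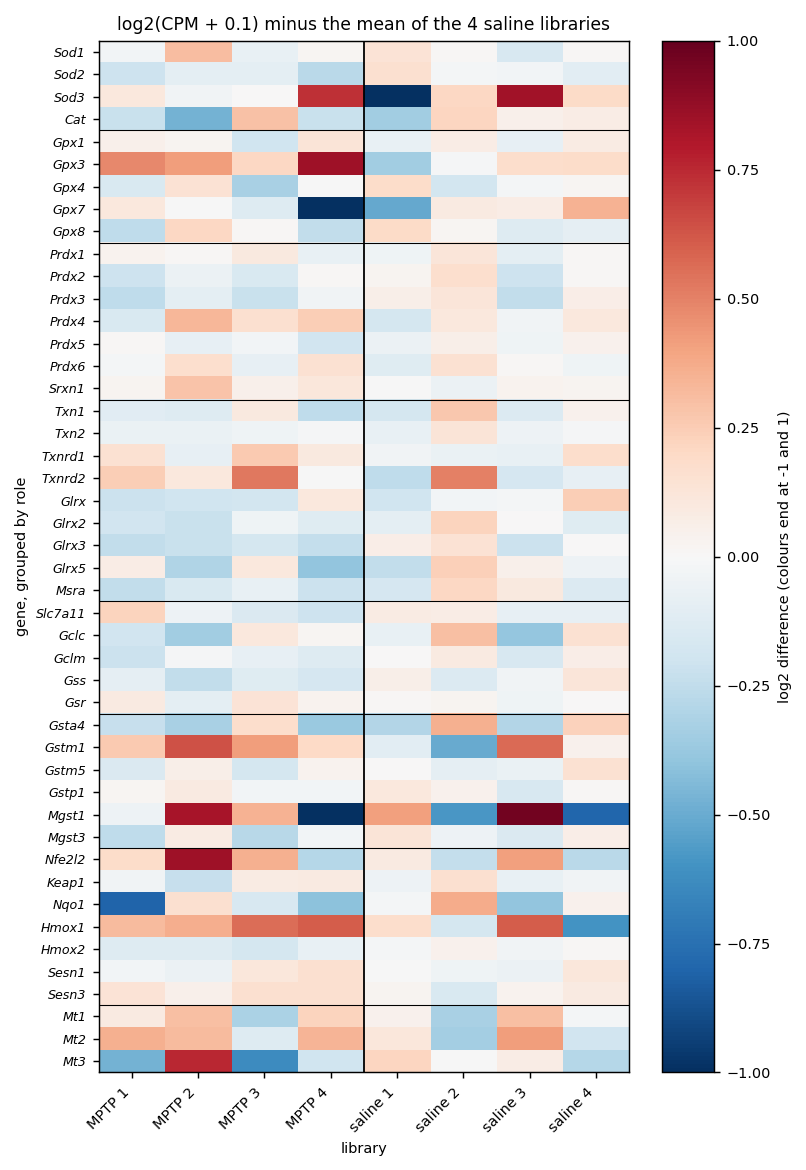
Difference of log2(CPM + 0.1) from the mean of the 4 saline libraries for each gene (rows, ordered by role) in the 4 MPTP libraries (left of the line) and the 4 saline libraries (right), with colours ending at -1 and 1. Most cells are pale, Gpx3 is red in all 4 MPTP libraries, and saline 3 is red for Sod3, Gstm1, Mgst1, Nfe2l2, Hmox1, Mt1 and Mt2.

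Which members separated the groups depended on the libraries used. Saline 3 was the highest saline library for 8 members (17.4%, against 28.5% of all genes tested), namely Sod3, Srxn1, Gstm1, Mgst1, Nfe2l2, Hmox1, Mt1 and Mt2. For 18 members (39.1%, against 29.4% of all genes tested) it was the lowest. With saline 3 left aside, all 4 MPTP libraries lay above saline 1, 2 and 4 for Gpx3, Srxn1, Gstm1 and Hmox1, where 7.22% of all genes tested did so. They lay below for Prdx3, Glrx3, Gclm and Hmox2, where 7.61% of all genes did so. Each direction thus held 4 of 46 members, near the share among all genes. With any other library left aside 1 to 3 members lay above and 1 or 2 below: Sod2 lay below without saline 4, Gss without saline 2 and Glrx3 without MPTP 3, while Sesn3 lay above without saline 4 and without MPTP 2, and Txnrd2 without saline 2. Gsr lay above without MPTP 2, and Prdx4 and Srxn1 without MPTP 1. All genes tested gave 2.98% to 4.33% above and 3.09% to 4.38% below in those settings, and Gpx3 (above) and Hmox2 (below) separated the groups in all of them. Over every setting tried 3 members, Gpx3, Gstm1 and Glrx3, passed the threshold at least once, each without saline 3, and 43 passed in none. Those passes are descriptive, since these data singled out saline 3.

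Other genes of the same pathways, 87 in the table, give the setting. Of these 85 were tested (Gsta2 and Osgin1 were too low), 34 had log2 fold changes above 0 and 51 below, with a median of -0.03, and edgeR called 0 higher and 0 lower. An unadjusted p under 0.05 was found for 2 higher and 4 lower genes. The groups did not overlap for 5 of the 85: Txndc12 and Gstt1 were above in all MPTP libraries, and Me3, Palb2 and Ggct below, where 2.04% of all genes tested lay above and 2.14% below. Among enzymes that supply NADPH, the electron donor of the glutathione and thioredoxin reductases, 10 of 13 were below 0 with a median of -0.09. Me1, cytosolic malic enzyme, was at 44.4, 50.7, 55.0 and 49.3 CPM in MPTP and at 60.4, 68.9, 49.6 and 59.1 CPM in saline, overlapping through saline 3, with a log2 fold change of -0.26 (SE 0.11, edgeR adjusted p = 0.506). The mitochondrial malic enzyme Me3 had -0.18, and Pgd of the pentose phosphate pathway had -0.16.

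Partners and regulators of NRF2 were below 0 in 10 of 17 genes. Cul3, the scaffold of the ubiquitin ligase that KEAP1 serves, was at 171, 150.1, 194 and 169 CPM in MPTP and at 222, 250.2, 176 and 200.2 CPM in saline. Saline 3 lay among the MPTP libraries and the log2 fold change was -0.31 (SE 0.11, edgeR adjusted p = 0.440). Without saline 3 Cul3 passed the edgeR threshold at -0.39 (adjusted p = 0.0492), where 0.983% of all genes were called lower, and its adjusted p values ran between 0.00845 and 0.889 over all alternatives. The DNA repair gene Palb2, whose protein also binds KEAP1, had a log2 fold change of -0.28, and Bach2, a repressor at related sites, 0.22.

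Of other redox enzymes 9 were above 0 and 16 below. Ggct, which breaks down gamma-glutamyl peptides of the glutathione cycle, was at 22.5, 22.7, 23.1 and 19.8 CPM in MPTP and at 25.0, 30.9, 24.6 and 27.9 CPM in saline. Every MPTP library lay below every saline library, with a log2 fold change of -0.30 (SE 0.11, edgeR adjusted p = 0.475). Txndc12 had 0.22 and Oplah, 5-oxoprolinase of the same cycle, 0.41. Selenop, listed under its older symbol Sepp1 and chosen after its values were seen, passed the edgeR threshold without saline 3 at 0.52 (adjusted p = 0.0265) and had 0.22 with all 8 libraries, with adjusted p values of 0.000778 to 0.992 over all alternatives.

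Other transferases and conjugate exporters were above 0 in 9 of 17 genes, and other NRF2-induced enzymes in 6 of 13. Gstt1, a theta-class transferase, was at 6.91, 6.45, 9.53 and 7.29 CPM in MPTP and at 4.91, 4.23, 5.91 and 4.77 CPM in saline. The groups did not overlap, and the log2 fold change of Gstt1 was 0.61 (SE 0.19, edgeR adjusted p = 0.415), beside 0.33 for Gstt2 and -0.25 for Gsto1. Ephx1, microsomal epoxide hydrolase, was at 3.82, 6.27, 3.46 and 5.29 CPM in MPTP and at 3.03, 2.29, 3.60 and 2.40 CPM in saline, overlapping through saline 3. Its log2 fold change was 0.73 (SE 0.26, edgeR adjusted p = 0.448), beside -0.19 for Akr1b10 and -0.24 for Blvrb.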

How the data were processed

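RNA from TRAP of midbrain dopaminergic neurons was sequenced in 4 MPTP and 4 saline libraries. Per the labels' protocols, nanogram amounts of RNA were amplified to cDNA, fragmented and read from a single end, with kits that do not mark strand, and a pair of libraries shared each run, so run and treatment cannot be told apart if runs followed the groups. The protocol covers substantia nigra and ventral tegmental neurons, combined or separate, and does not say which applies. TopHat2 2.0.8 and the mm10 build were used, per the submitters' processing notes. Neither the counting tool nor the gene annotation nor the strand setting is given in the sources used here. The authors deposited raw counts per gene for 21761 genes in 8 library columns. Their totals bound the precision, and since reads carry no molecular identifiers counting error is not the whole error.

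Counts were used as deposited in edgeR 4.0.16 (R 4.3.3) with TMM scaling and the filterByExpr filter. MPTP and saline were compared over the 15999 genes left by the robust quasi-likelihood F-test without covariates, with Benjamini-Hochberg adjustment over all of them and a threshold of 0.05. Log2 fold changes are MPTP minus saline. The SE was computed as |log2 fold change| over √F, and 95% intervals use the fit's degrees of freedom. CPM use TMM-scaled library sizes, and log2 CPM a prior count of 2. Marker scores are means of log2 CPM, compared by exact two-sided permutation over the 70 ways to choose 4 of 8 libraries. Exon lengths are the union of all annotated exons of a gene, and lengths, overlaps and positions are from GENCODE on GRCm38. Near copies are transcript matches of at least 95% identity over at least 100 bases.

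The members and all lists were chosen with earlier results of these data known. Values per library are given for 14 members of central roles, the 2 members of each role with the smallest p, and members whose groups do not overlap. The 3 genes with the smallest p are named from each further list. Alternatives were scaling by DESeq2 size factors or the upper quartile, omitting the filter or requiring a mean CPM of 5, a replicate block, a non-neuronal covariate (the mean score of endothelial, microglia, oligodendrocyte and astrocyte markers), DESeq2 1.42.0, limma voom 3.58.1 with sample weights, and leaving out each library.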

Additional observations from a re-analysis of the deposited data

Results flagged for a closer look

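In 5 of the 92 groups of 4 libraries formed by the 46 genes (5.43%), the highest or lowest library stood far from the other 3, where chance gives about 1 in 20. Sod3 was at 1.31 CPM in MPTP 4 and between 0.734 and 0.817 CPM in the other MPTP libraries. Glrx was at 111 CPM in MPTP 4 and between 89.3 and 91.3 CPM in the others. Mt2 was at 25.9 CPM in MPTP 3 and between 35.4 and 36.3 CPM in the others. Txnrd1 was at 52.6 CPM in saline 4 and between 44.4 and 45.5 CPM in the other saline libraries. Keap1 was at 36.1 CPM in saline 2 and between 30.7 and 31.4 CPM in the others. None of the 5 values lies in saline 3, the library that stands with the MPTP libraries on the first principal component.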

How the results depend on the processing

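Among 18 alternatives, 2 were added after seeing the data: leaving out saline 3 together with the non-neuronal covariate, and DESeq2 without saline 3. Without saline 3 edgeR called 1 member higher, 0 lower and 2 other pathway genes (297 genes in all, against 17), and DESeq2 called 2 members higher, 1 lower and 6 others (829 in all). Leaving out any of the other 7 libraries gave 0 calls among members and other pathway genes, and so did the remaining alternatives. Of all genes tested, DESeq2 with all 8 libraries called 0.331% and edgeR with the non-neuronal covariate 0.106%. Over the libraries left out in turn, members called higher ranged from 0 to 1, members called lower from 0 to 0, other pathway genes called from 0 to 2, the member median from -0.07 to -0.02, the non-neuronal difference from 0.16 to 0.48 and the dopaminergic difference from -0.29 to -0.09. The member median was 0.022 in the first added setting, where the score separates the groups and the fit is poorly determined. The cause was not tested.

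Signs turned for values near 0. With the covariate Gclc had 0.10, Keap1 0.048 and Mt1 -0.067. Leaving out saline 3 as well gave -0.33 for Sod1, 0.57 for Cat, -0.047 for Srxn1, 0.039 for Msra, 0.30 for Gclc, 0.21 for Gsta4, -0.45 for Nfe2l2, 0.32 for Keap1, -0.20 for Mt1, -0.0074 for Txndc12 and 0.082 for Akr1b10. Over the libraries left out in turn Sod1 ranged from -0.032 to 0.11, Gpx1 from -0.034 to 0.068, Slc7a11 from -0.14 to 0.017, Keap1 from -0.058 to 0.043, Mt1 from -0.021 to 0.19 and Mt3 from -0.44 to 0.12. Gpx1 had -0.013 with limma voom and -0.023 with DESeq2 without saline 3. Of 714 single-gene values, 675 kept their sign and side of the threshold, 30 turned and 9 newly passed.

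The replicate numbers gave no sign of pairing the samples, as same-numbered libraries correlated at -0.024, -0.12, -0.028 and 0.039 in their deviations. Which libraries shared a run is not given, so pairing by run was not tested. With the replicate block 0 members passed, the member median was -0.05 and the lowest adjusted p, of Gpx3, was 0.599 by edgeR. The marker score differences are the same under the block, at 0.27 and -0.15 (exact permutation p = 0.5 and 0.375). Sod3 and Mgst1, the members at the lowest levels, have intervals that span more than 2-fold either way.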
